A study of Mus musculus with 6 samples.

Results

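The genes of cholesterol synthesis, uptake and efflux were compared between livers of mice exposed to DEHP and livers of unexposed mice. The 32 genes were chosen by symbol, and each of the 32 symbols had a single row among the 41096 annotated rows of the deposited gene count table. DEHP, di(2-ethylhexyl) phthalate, is a plasticizer of polyvinyl chloride. There were 3 libraries labelled as liver with DEHP exposure and 3 labelled as liver without it, all from polyadenylated mouse RNA. Columns of exposed livers are headed High, and no dose, duration, route, strain, age or sex is in the labels. Nothing in the labels states that each library is a different animal, so p-values measure the spread between these libraries, which may be technical. The design text of the series describes bisulfite sequencing of a human cell line, and the groups were taken from the sample titles.

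Hepatocytes make cholesterol from acetyl-CoA through mevalonate, squalene and lanosterol, take it up from lipoproteins, and export it to HDL and to bile. When sterols in the endoplasmic reticulum are low, the escort protein SCAP carries the transcription factor SREBP2 to the Golgi for cleavage, and the cleaved factor switches on the synthesis genes; INSIG proteins hold the complex back when sterols are plentiful. Oxysterols activate the nuclear receptors LXRalpha and LXRbeta, which raise the ABC exporters, so the synthesis and efflux arms usually answer cell sterol in opposite directions.

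Total counts were 10410098 to 12405044 in DEHP libraries and 12001969 to 14229803 in control libraries. The control libraries were not alike. The summed level of 23 interferon-stimulated genes was 457, 403 and 453 CPM in DEHP replicates 1 to 3, and 4565, 3637 and 430 CPM in control replicates 1 to 3, where CPM are library-scaled counts. Over 13 Kupffer cell and macrophage markers the sum was 308, 471 and 390 CPM in DEHP libraries and 1190, 1076 and 295 CPM in control libraries, with no marker at 0 in any library. Control replicates 1 and 2 thus stood apart from control replicate 3 in both. In bulk liver, fewer cells of a type and less RNA per cell cannot be told apart. The hepatocyte markers summed to 94577 to 126145 CPM in DEHP libraries and 107646 to 151500 CPM in control libraries, with overlapping ranges. Alb made up most of that sum, so it says little about the other markers. At an unadjusted p of 0.05 in edgeR, Cps1 and Ass1 were higher and Apoa1 lower in DEHP livers. That is 42.9% of the 7 markers, against 13.1% of all genes, and the groups overlapped for each of them.

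Of the 32 genes, 31 passed the filter on low counts and none passed an adjusted p of 0.05 in edgeR's quasi-likelihood test, where 0.0722% of all 12468 genes tested passed (9 genes). DESeq2 called 1 of the 31 and limma-voom 0. At an unadjusted p of 0.05, 4 were higher in DEHP livers (Abca1, Abcg8, Insig1 and Tm7sf2) and 1 was lower (Nr1h2); over all genes 6.11% were higher and 6.97% lower by that rule. The share among the members, 16.1%, lay near the 13.1% of all genes. Across the 31 genes the log2 fold change of DEHP over control ran from -0.61 to 0.65 with a median of 0.08, against a median of -0.03 over all genes tested. The groups did not overlap for 3 of them, with Abca1 and Abcg8 higher and Nr1h2 lower in DEHP livers. Over all genes, 9.17% lay apart as higher and 8.57% as lower, or 17.7% together, against 9.68% of the members. A p that misses the threshold does not show that a gene was unaffected. The common biological coefficient of variation between libraries was 27.8%, and standard errors among the members were 0.18 to 0.70 on the log2 scale.

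**Figure D1:**
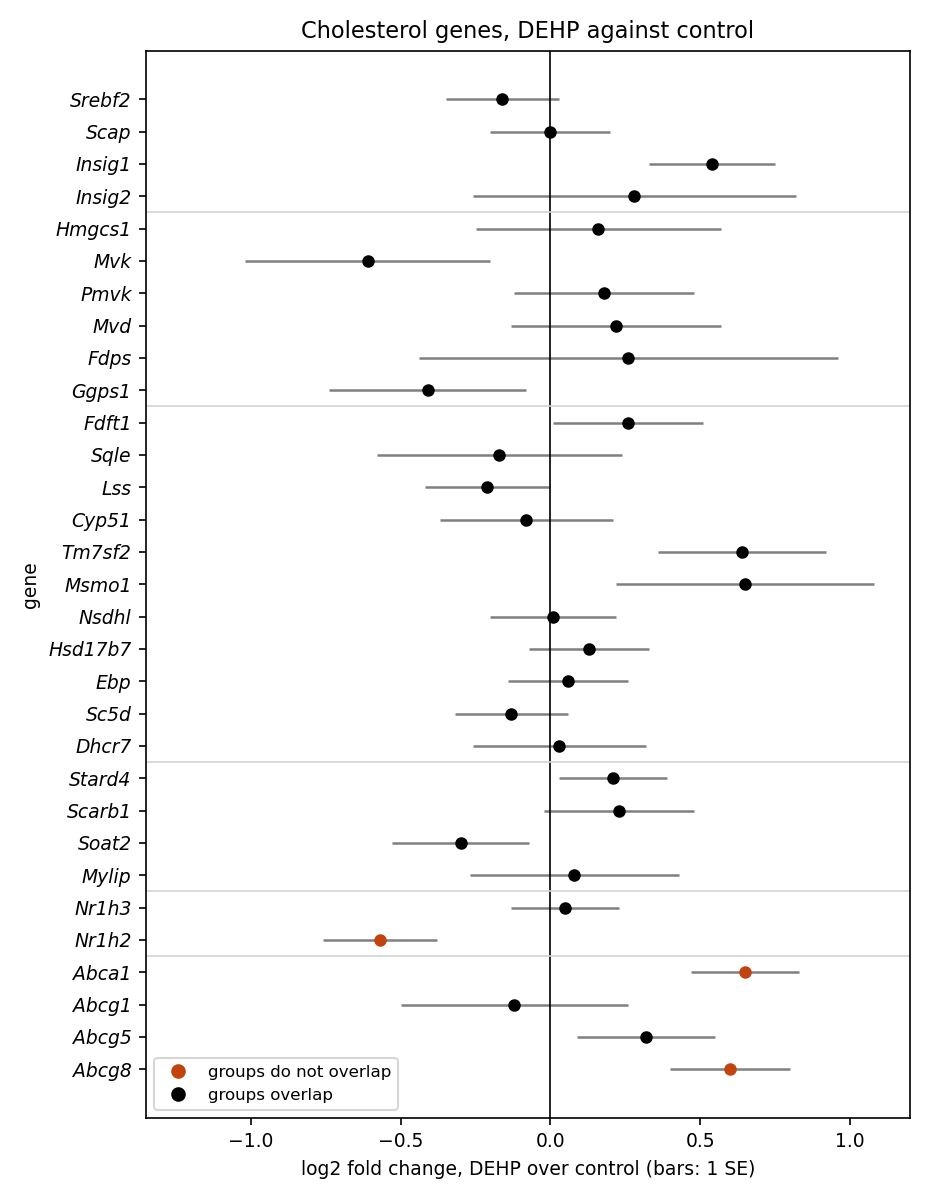
Log2 fold change of DEHP over control (x axis) for the 31 tested cholesterol genes (y axis, ordered by role, grey lines between roles), with bars of 1 standard error from edgeR. The 3 coloured points, Nr1h2, Abca1 and Abcg8, are the genes whose 3 DEHP and 3 control libraries do not overlap.

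The promoters of 25 of the 32 genes were matched by symbol in RefSeq's table for GRCm38.p6, and the 250 bases before each start were searched on both strands. A sterol response element spelled TCACNCCAC was found for Hmgcs1 alone among these 25, and for 1.22% of all 27025 genes with a promoter. CCAAT, the letters bound by NF-Y, which works beside SREBP2 at many sterol genes, occurred in at least 1 promoter of each of the 17 matched synthesis and uptake genes (100%), against 37.5% of all genes. The synthesis and uptake list holds Srebf2, Insig1, Stard4 and the enzymes of synthesis, and no lipoprotein receptor. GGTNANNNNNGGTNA, a direct repeat of the kind that LXR binds, was found for Abca1 alone among the 25 and for 0.707% of all genes. A match describes letters and not a bound site. The promoters of Hmgcs1, Msmo1 and Cyp51 are shown, the first for its sterol response element and the others as examples of promoters with CCAAT matches alone, chosen after values were seen, with TCACNCCAC and CCAAT, in either orientation, in capitals. They lie at chr13:119690101-119690350 on the plus strand, chr8:64733579-64733828 on the minus strand and chr5:4104698-4104947 on the minus strand of GRCm38.p6.
Hmgcs1: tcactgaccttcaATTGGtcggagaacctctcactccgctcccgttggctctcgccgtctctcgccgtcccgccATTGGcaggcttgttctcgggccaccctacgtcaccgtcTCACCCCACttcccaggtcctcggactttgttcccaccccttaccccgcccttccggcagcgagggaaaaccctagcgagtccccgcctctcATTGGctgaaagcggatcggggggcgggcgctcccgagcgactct
Msmo1: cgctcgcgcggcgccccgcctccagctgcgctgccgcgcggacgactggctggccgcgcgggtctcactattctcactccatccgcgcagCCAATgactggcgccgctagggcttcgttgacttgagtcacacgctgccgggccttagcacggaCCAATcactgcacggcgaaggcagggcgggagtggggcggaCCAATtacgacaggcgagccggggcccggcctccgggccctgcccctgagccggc
Cyp51: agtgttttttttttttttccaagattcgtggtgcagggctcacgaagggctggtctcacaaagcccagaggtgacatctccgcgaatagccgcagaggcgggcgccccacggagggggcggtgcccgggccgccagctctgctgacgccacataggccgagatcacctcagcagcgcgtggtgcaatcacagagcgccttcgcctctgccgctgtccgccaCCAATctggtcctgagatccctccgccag
The sterol response element of Hmgcs1 spans bases -137 to -129 from the start, and does not overlap its 3 CCAAT matches. Msmo1 holds 3 CCAAT matches and Cyp51 holds 1.

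Of the 4 exporters, 2 did not overlap between the groups and 2 did, where 17.7% of all genes tested lay apart. Abca1, which loads cholesterol onto lipid-poor apolipoprotein A-I to form HDL, spans chromosome 4 from 53561151 to 53692448 in the table's coordinates, which follow a C57BL/6NJ strain annotation. It had 108, 112 and 98.0 CPM in DEHP replicates 1 to 3, against 67.5, 63.1 and 72.2 CPM in control replicates 1 to 3. All 3 DEHP libraries lay above all 3 controls. The means were 106 ± 7.30 CPM in DEHP livers and 67.6 ± 4.54 CPM in control livers (SD, n = 3 each), a log2 fold change of 0.65 ± 0.18 (SE) with an edgeR adjusted p of 0.191. With DESeq2 in place of edgeR, Abca1 was the single member past the threshold (adjusted p = 0.0393, 2.37% of genes called). Over all settings tried its adjusted p ran from 0.0393 to 0.988, the highest with 1 control library. Its promoter at chr4:53159896-53160145 on the minus strand of GRCm38.p6 carries the LXR-type repeat on the opposite strand, at bases -67 to -53, in capitals.
Abca1: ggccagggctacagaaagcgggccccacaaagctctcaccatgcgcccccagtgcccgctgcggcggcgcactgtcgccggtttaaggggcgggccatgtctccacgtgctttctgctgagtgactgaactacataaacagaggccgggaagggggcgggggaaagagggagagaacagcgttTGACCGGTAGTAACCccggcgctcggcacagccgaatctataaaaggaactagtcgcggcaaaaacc

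Abcg8 and Abcg5 encode the paired subunits of the transporter that secretes sterols into bile and gut. In the same coordinates Abcg5 spans chromosome 17 from 90951431 to 90976891 on the minus strand and Abcg8 from 90977001 to 90997723 on the plus strand, so the genes read away from each other across 109 bases. Abcg8 had 195, 164 and 133 CPM in DEHP livers and 96.5, 102 and 127 CPM in control livers. The groups stood apart, with DEHP replicate 3 and control replicate 3 close together (log2 fold change 0.60 ± 0.20, edgeR adjusted p = 0.271). Abcg5 had 285, 166 and 165 CPM in DEHP livers and 170, 147 and 178 CPM in control livers. Here DEHP replicate 1 alone lay above every control, and the log2 fold change was 0.32 ± 0.23 (adjusted p = 0.599), or 0.02 with that library left out. Per kilobase of gene length, Abcg5 was the most abundant exporter, at 75.7 CPM per kilobase in DEHP livers and 60.8 in control livers, with Abcg8 at 44.7 in DEHP livers and 29.6 in control livers.

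Abcg1, which exports cholesterol to mature HDL and is abundant in macrophages, had 4.76, 7.15 and 6.12 CPM in DEHP livers and 8.51, 7.74 and 3.28 CPM in control livers. Control replicates 1 and 2 were the highest libraries and control replicate 3 the lowest, the same split as the macrophage marker sums, and the part of macrophages in this value was not tested. Its log2 fold change was -0.12 ± 0.38 (edgeR adjusted p = 0.932), and 0.89 when control replicates 1 and 2 were both left out.

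**Figure D2:**
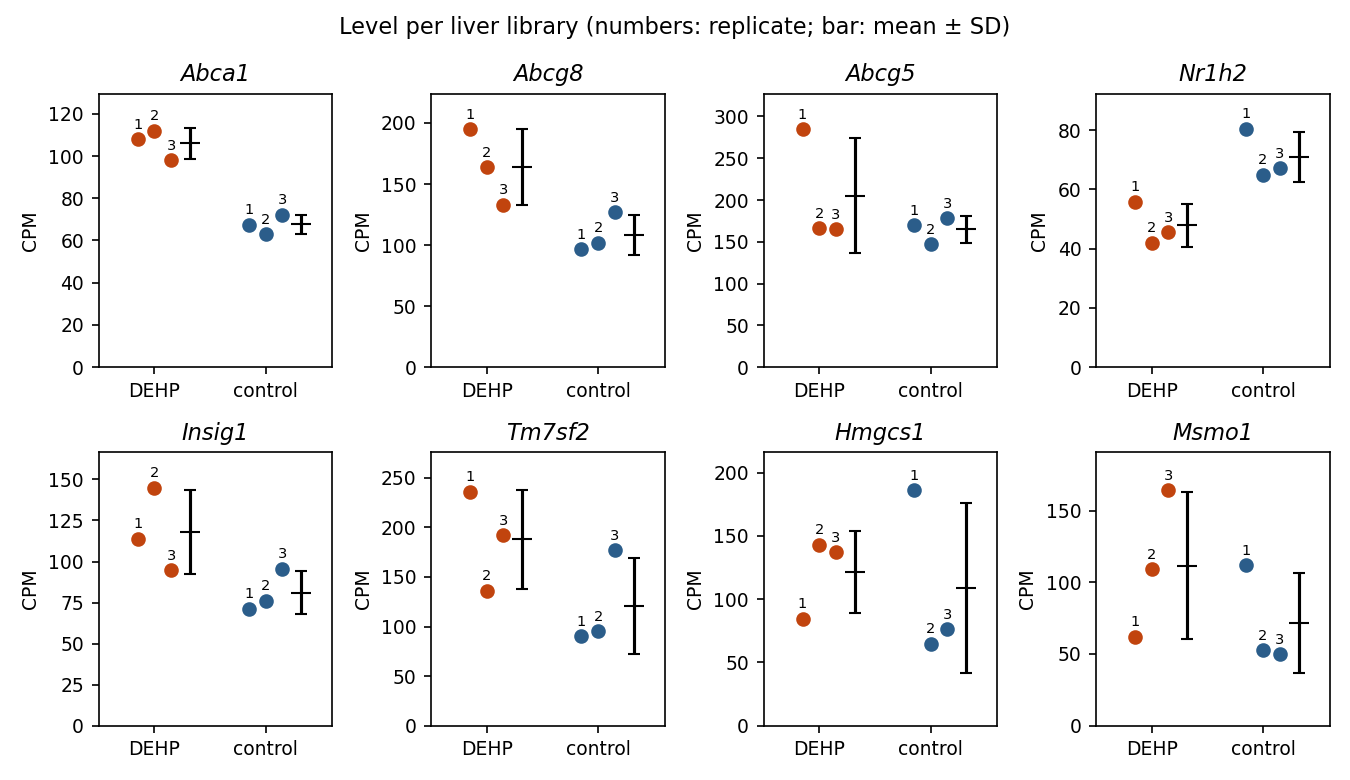
CPM (y axis, from 0) of 8 cholesterol genes in each DEHP and control library, with the replicate number above each point and the mean ± SD beside each group (n = 3). Abca1 and Abcg8 lie higher and Nr1h2 lower in all DEHP libraries than in any control, while for Hmgcs1 and Msmo1 the spread within a group exceeds the difference between groups.

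Of the receptors, Nr1h3, which encodes LXRalpha and is the main LXR of hepatocytes, stood at 142, 126 and 141 CPM in DEHP livers and 143, 136 and 115 CPM in control livers. The ranges overlapped (log2 fold change 0.05 ± 0.18, edgeR adjusted p = 0.936). Nr1h2, which encodes the broadly expressed LXRbeta and spans chromosome 7 from 46985585 to 46989920 in the strain annotation, had 55.9, 42.0 and 45.6 CPM in DEHP livers, against 80.5, 65.0 and 67.2 CPM in control livers. All DEHP libraries lay below all controls, with a log2 fold change of -0.57 ± 0.19 (adjusted p = 0.264). Stellate cell markers summed to 132, 212 and 199 CPM in DEHP livers and 244, 218 and 276 CPM in control livers, and sinusoidal endothelial markers to 291, 199 and 362 CPM in DEHP livers and 363, 355 and 447 CPM in control livers, with 1 of 10 and 1 of 9 positive log2 fold changes and none at 0. Their part in the Nr1h2 value was not tested. Per kilobase, Nr1h3 was at 54.3 CPM in DEHP livers and 52.3 in control livers, and Nr1h2 at 14.2 in DEHP livers and 21.1 in control livers. Mylip, an LXR target whose E3 ligase IDOL degrades lipoprotein receptors, had 9.32, 6.28 and 11.1 CPM in DEHP livers and 5.88, 6.80 and 12.7 CPM in control livers. It was highest in a control, so the 3 LXR-regulated genes Abca1, Abcg8 and Mylip did not share an order of libraries (Mylip log2 fold change 0.08 ± 0.35, adjusted p = 0.948).

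Among the sterol sensors, Srebf2, which encodes SREBP2 itself, had 40.8, 41.3 and 47.7 CPM in DEHP livers and 49.0, 41.6 and 54.1 CPM in control livers (log2 fold change -0.16 ± 0.19, edgeR adjusted p = 0.770). Scap had means of 120 ± 11.3 CPM in DEHP livers and 120 ± 21.2 CPM in control livers (SD, n = 3 each). Neither differed beyond the spread between libraries. Insig1, an SREBP2 target that feeds back on SCAP, had 114, 145 and 94.6 CPM in DEHP livers and 71.2, 76.2 and 95.7 CPM in control livers. A single pair overlapped, DEHP replicate 3 and control replicate 3 (log2 fold change 0.54 ± 0.21, adjusted p = 0.322). Insig2, which in mouse liver has a transcript that insulin lowers and fasting raises, ranged most among the sensors, with 90.3, 343 and 216 CPM in DEHP livers and 163, 108 and 261 CPM in control livers. Its highest library was 3.79 times its lowest within DEHP livers and 2.41 times within control livers, and the log2 fold change was 0.28 ± 0.54 (adjusted p = 0.870).

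The mevalonate and isoprenoid steps gave log2 fold changes of -0.61 to 0.26 over the 6 genes tested, with none at an unadjusted p of 0.05. Hmgcs1, the cytosolic HMG-CoA synthase, had 84.5, 143 and 137 CPM in DEHP livers and 186, 64.7 and 76.2 CPM in control livers. Control replicate 1 was the highest of all and the other controls the lowest, a 2.88-fold range within 1 group (log2 fold change 0.16 ± 0.41, edgeR adjusted p = 0.912). Without control replicate 1 its log2 fold change was 0.79, and without control replicate 2 it was -0.11. Mvk, mevalonate kinase, had 7.90, 5.41 and 19.7 CPM in DEHP livers and 20.0, 13.7 and 16.7 CPM in control livers. DEHP replicates 1 and 2 lay below every control, and DEHP replicate 3 within the control range (log2 fold change -0.61 ± 0.41, adjusted p = 0.578). The value was -1.34 without DEHP replicate 3, -0.27 without DEHP replicate 2 and -0.40 without DEHP replicate 1. Pmvk and Mvd, the next enzymes in line, had log2 fold changes of 0.18 ± 0.30 and 0.22 ± 0.35, and Ggps1, which makes geranylgeranyl diphosphate, had -0.41 ± 0.33.

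Idi1, the isopentenyl diphosphate isomerase, was not tested, with 0, 3 and 3 counts in DEHP libraries and 5, 2 and 5 counts in control libraries. Fdps, farnesyl diphosphate synthase, had 22, 6 and 18 counts in DEHP libraries and 25, 12 and 9 counts in control libraries (log2 fold change 0.26 ± 0.70). The table holds 5 other rows described as Fdps, all at 0, and 4 described as Idi1, of which 2 had any count and none above 8. Reads shared with such copies may be counted nowhere or elsewhere, and these low values say little about either gene.

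In the squalene and sterol steps, 7 of 11 log2 fold changes were positive and 4 negative, from -0.21 to 0.65. Ebp, the sterol isomerase, was the most abundant synthesis gene per kilobase, at 106 CPM in DEHP livers and 101 in control livers. It had 244, 230 and 261 CPM in DEHP livers and 201, 212 and 289 CPM in control livers (log2 fold change 0.06 ± 0.20, edgeR adjusted p = 0.927). Tm7sf2, a sterol C14-reductase, had 236, 136 and 192 CPM in DEHP livers and 90.1, 95.1 and 177 CPM in control livers. Control replicate 3 lay within the DEHP range (log2 fold change 0.64 ± 0.28, adjusted p = 0.374), and without it Tm7sf2 passed at 1.04 (adjusted p = 0.0289, 3.10% of genes called). Its span overlaps Vps51 on the same strand, a row with 156, 176 and 254 counts in DEHP libraries and 301, 259 and 210 in control libraries, so the split of reads between them is uncertain.

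Msmo1, a sterol C4-methyl oxidase, had 61.9, 109 and 164 CPM in DEHP livers and 112, 52.6 and 49.9 CPM in control livers. The ranges overlapped through control replicate 1 (log2 fold change 0.65 ± 0.43, edgeR adjusted p = 0.575). Leaving out control replicate 1 gave 1.13 and leaving out DEHP replicate 3 gave 0.26. Sqle, squalene epoxidase, a rate-controlling step, had 13.3, 27.0 and 46.0 CPM in DEHP livers and 41.5, 32.6 and 23.2 CPM in control livers. It spanned 3.46-fold within DEHP livers and had a log2 fold change of -0.17 ± 0.41. The other 7 were squalene synthase (Fdft1), lanosterol synthase (Lss), lanosterol demethylase (Cyp51), the C4-demethylation enzymes Nsdhl and Hsd17b7, the desaturase Sc5d and the reductase Dhcr7, which had log2 fold changes of -0.21 to 0.26. The spans of Fdft1 and Cyp51 overlap Ctsb and Akap9 on the opposite strand, as that of Ggps1 does Arid4b, and the strand setting of the counting was not stated.

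Many synthesis genes were highest in the same library of each group. Of 20 synthesis and uptake genes tested, 13 were highest among controls in control replicate 1 (65.0%, against 34.1% of all genes tested), and 14 were highest among DEHP libraries in DEHP replicate 3 (70.0%, against 30.0%). Both held for 10 of the 20 (50.0%, against 10.4% of all genes): Mvk, Pmvk, Mvd, Ggps1, Fdft1, Sqle, Lss, Cyp51, Msmo1 and Dhcr7. Control replicate 1 was also the lowest control for 6 of the 20 (30.0%, against 36.6% of all genes). A list of 15 further SREBP targets and late synthesis genes is not a like set, as it also holds fatty acid genes such as Fasn, Elovl6 and Fads1. In it, DEHP replicate 3 was the highest DEHP library for 9 (60.0%), but control replicate 1 was the highest control for 3 and the lowest for 11 (73.3%). These counts describe 6 libraries, and the order was noticed in the values before it was counted. Control replicates 1 and 2 were alike in interferon-stimulated and macrophage genes but not here: relative to each gene's mean over the 6 libraries, the median log2 CPM of the 20 genes was 0.38 in control replicate 1 and -0.21 in control replicate 2.

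**Figure D3:**
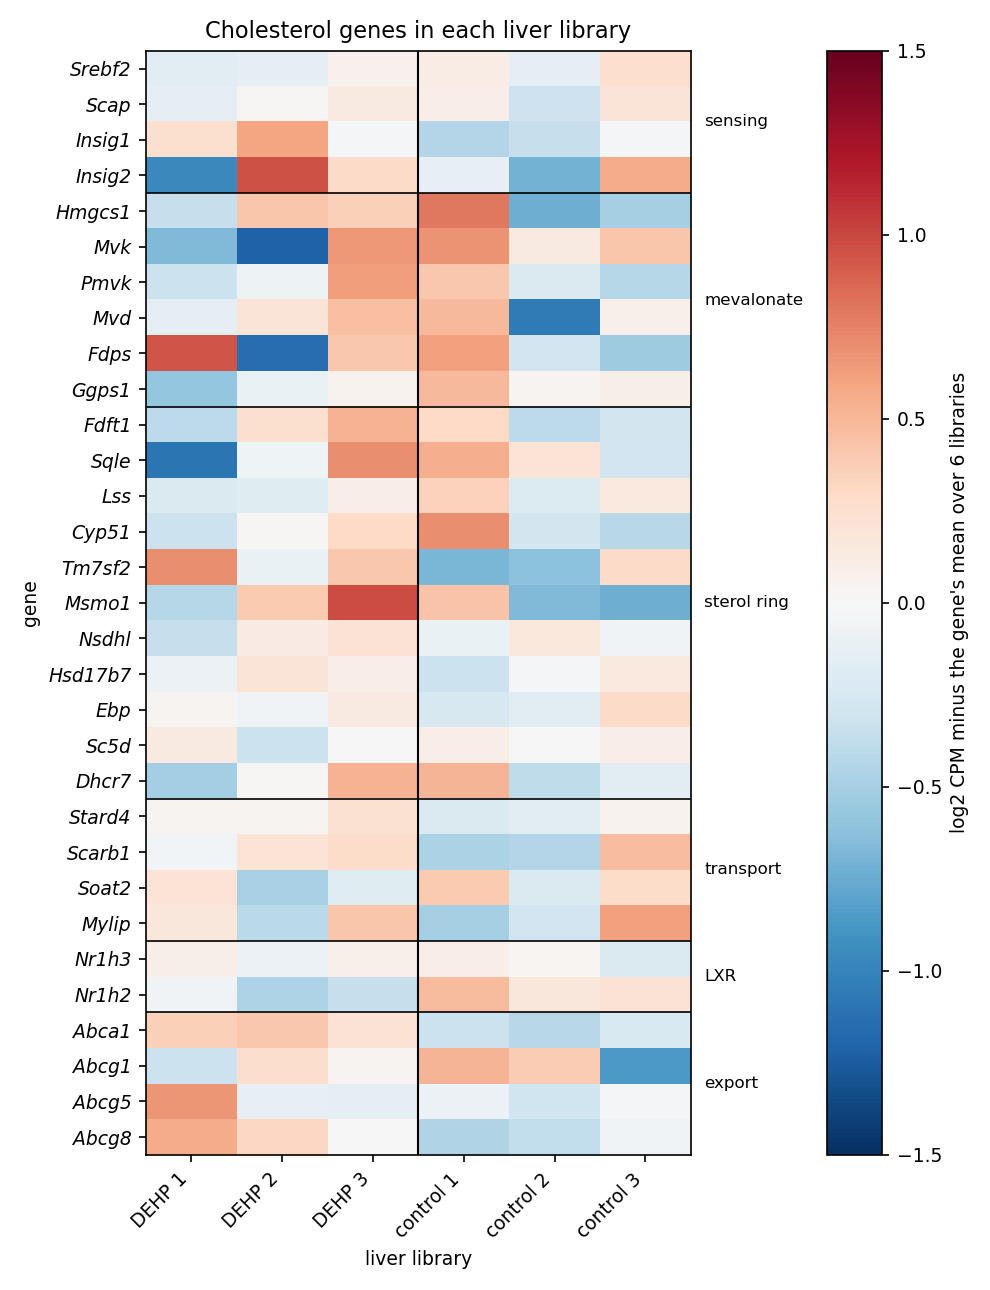
Log2 CPM of the 31 tested cholesterol genes (rows, grouped by role) in the 3 DEHP and 3 control liver libraries (columns), minus each gene's mean over the 6 libraries; red is higher and blue lower. Most mevalonate and sterol ring genes are red in DEHP 3 and control 1, and Abca1 is red in DEHP and blue in control libraries. So is Abcg8, except in DEHP 3 and control 3, which lie close to its mean and are nearly white.

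For transport, uptake and storage, Scarb1, the HDL receptor SR-BI, had 156, 184 and 194 CPM in DEHP livers and 115, 118 and 221 CPM in control livers. Control replicate 3 was the highest library and the other controls the lowest (log2 fold change 0.23 ± 0.25, edgeR adjusted p = 0.734). Leaving out control replicate 3 gave 0.64. Soat2, which esterifies cholesterol for storage and secretion, was the most abundant of these per kilobase in both groups and had 63.4, 39.1 and 48.4 CPM in DEHP livers and 71.9, 47.3 and 66.3 CPM in control livers (log2 fold change -0.30 ± 0.23, adjusted p = 0.616). Stard4, an SREBP2 target that moves sterol between membranes, differed by 0.21 ± 0.18 on the log2 scale (adjusted p = 0.670). The groups overlapped for all 3.

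Set against each other, the efflux arm as listed here separated between the groups in its medians and the synthesis arm did not. Each gene's log2 CPM was taken relative to its mean over the 6 libraries, and the median over each arm was read per library. The efflux arm holds the exporters Abca1, Abcg1, Abcg5 and Abcg8, with the LXR target Mylip and the receptor Nr1h3, which are not exporters. Over these 6, called efflux genes here, the median was 0.25, 0.08 and 0.06 in DEHP replicates 1 to 3. It was -0.20, -0.29 and -0.14 in control replicates 1 to 3. For the 20 synthesis and uptake genes it was -0.27, -0.02 and 0.32 in DEHP libraries, against 0.38, -0.21 and 0.02 in control libraries. These 20 are Srebf2, Insig1, Stard4, the 6 mevalonate and isoprenoid genes tested and the 11 of the squalene and sterol steps. Scarb1 is in neither arm, so the synthesis arm holds no lipoprotein receptor. Nr1h2, the other LXR receptor, is also in neither arm. It was lower in all DEHP libraries than in any control (log2 fold change -0.57 ± 0.19). The separation of the efflux medians rests on this choice of 6 genes and was not computed with Nr1h2 included. The efflux medians did not overlap between groups and the synthesis medians did. Of the 6 genes of the efflux arm, only Abca1 and Abcg8 lay apart singly (33.3%, against 17.7% of all genes tested). Abcg1, Abcg5, Mylip and Nr1h3 overlapped. No share over all genes was computed for such medians. Over the 4 ABC exporters alone, without Mylip and Nr1h3, the medians were 0.46, 0.28 and 0.02 in DEHP libraries and -0.20, -0.33 and -0.14 in control libraries. Efflux minus synthesis was 0.52, 0.10 and -0.26 in DEHP libraries and -0.58, -0.08 and -0.15 in control libraries, with DEHP replicate 3 below 2 of the 3 controls. As fitted fold changes, the median was 0.20 over the efflux genes and 0.09 over the synthesis genes, beside -0.03 over all genes. The efflux median was 0.06 without DEHP replicate 1 and stood at 0.37 without DEHP replicate 2 and 0.45 without control replicate 3. The synthesis median was 0.25 without control replicate 1, -0.04 without DEHP replicate 3 and -0.05 without control replicate 2.

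**Figure D4:**
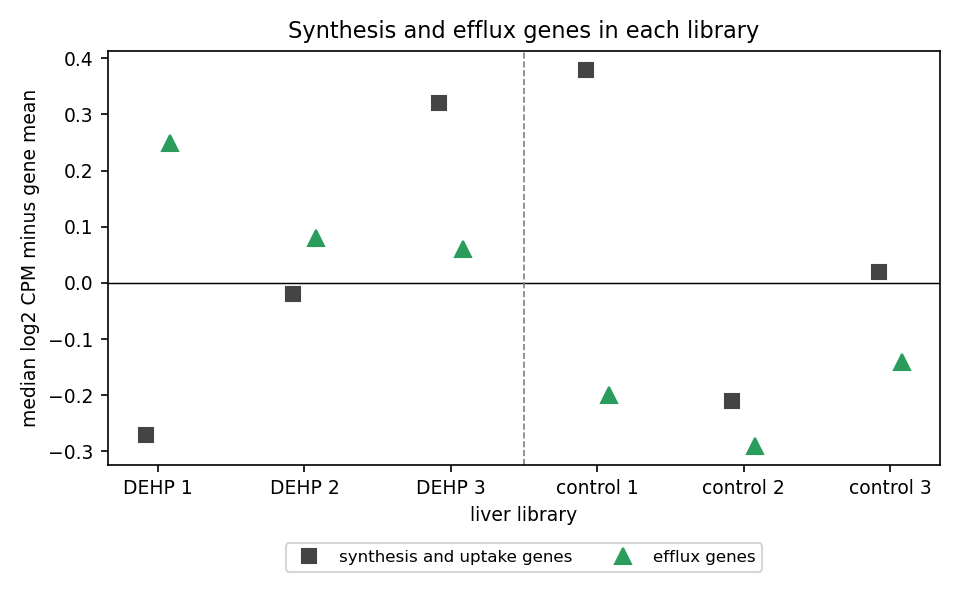
Median over 20 synthesis and uptake genes (squares) and 6 efflux genes (triangles) of log2 CPM minus each gene's mean over 6 libraries (y axis), in each DEHP and control liver library (x axis). The 20 genes include no lipoprotein receptor. The 6 efflux genes include Mylip and Nr1h3, which are not exporters, and leave out Nr1h2. The triangles lie above 0 in all 3 DEHP libraries and below 0 in all 3 controls; the squares range from -0.27 to 0.32 in DEHP and from -0.21 to 0.38 in control libraries.

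Other genes of the pathway gave few calls. Of 11 further LXR targets tested, 8 log2 fold changes were positive (median 0.37), against 5868 of 12468 over all genes. Lpl, lipoprotein lipase, alone passed in edgeR, and DESeq2 called 2, Lpl and Cyp7a1. Over all genes, edgeR called 0.0722% and DESeq2 2.37%. Lpl rose to 50.1, 53.5 and 62.5 CPM in DEHP livers, against 27.4, 17.7 and 22.2 CPM in control livers (log2 fold change 1.30 ± 0.21, edgeR adjusted p = 0.0339). Limma-voom did not call it (adjusted p = 0.105), and the edgeR call was lost without DEHP replicate 2 or 3 or control replicate 1 or 2 (adjusted p = 0.145, 0.285, 0.0507 and 0.225), in the fit that is not robust (0.0620), with control replicates 1 and 2 both left out (0.198) and with the replicate block (0.144). Cyp7a1, which catalyses the rate-limiting step of bile acid synthesis and is an LXR target in rodents, had 52.8, 138 and 119 CPM in DEHP livers and 33.7, 29.6 and 33.1 CPM in control livers, with no overlap. Its log2 fold change, 1.69 ± 0.30, was the highest of the 11, with an adjusted p of 0.120 in edgeR and 1.99e-05 in DESeq2. It passed in edgeR without DEHP replicate 1 (adjusted p = 3.41e-04), without control replicate 3 (0.0162) and with no low-count filter (3.39e-11). Those settings called 19, 400 and 496 of all genes. Lpcat3, an LXR target that remodels phospholipids, had 113, 111 and 120 CPM in DEHP livers and 57.1, 78.0 and 82.3 CPM in control livers, with no overlap (log2 fold change 0.66 ± 0.20, edgeR adjusted p = 0.208). Srebf1, which encodes SREBP1 and is raised by LXR in liver, had 184, 75.7 and 119 CPM in DEHP livers and 199, 165 and 114 CPM in control livers (-0.33 ± 0.31). The groups thus lay apart for Cyp7a1 and Lpcat3 as for Lpl, and overlapped for Srebf1. Of the 11, 27.3% lay apart, against 17.7% of all genes in either direction.

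Of 8 genes for SREBP cleavage and turnover none passed in edgeR, DESeq2 or limma-voom. Of 15 further SREBP targets and late synthesis genes none passed in edgeR, DESeq2 or limma-voom, and 2 were at an unadjusted p of 0.05, both higher, a share of 13.3% against 13.1% of all genes in either direction. Tmem97, an SREBP2 target and regulator of lysosomal sterol export, had 103, 94.8 and 109 CPM in DEHP livers and 70.5, 72.6 and 73.8 CPM in control livers, with no overlap (log2 fold change 0.50 ± 0.18, edgeR adjusted p = 0.282).

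Sterol transfer between membranes had 18 genes tested, of which none passed in edgeR, DESeq2 or limma-voom, 4 were at an unadjusted p of 0.05 and 6 lay apart, all higher in DEHP livers (median log2 fold change 0.24). These are 22.2% and 33.3% of the list, against 6.11% and 9.17% of all genes in that direction, and 13.1% and 17.7% in either direction. Osbpl1a, an oxysterol-binding protein relative of late endosomes, had 111, 153 and 118 CPM in DEHP livers and 75.6, 91.9 and 103 CPM in control livers (log2 fold change 0.50 ± 0.20, adjusted p = 0.339). Stard5, a cytosolic sterol carrier, had 177, 181 and 194 CPM in DEHP livers and 127, 155 and 135 CPM in control livers (0.41 ± 0.18, adjusted p = 0.369). Among 10 genes of lipoprotein uptake and HDL, Cd36, a scavenger receptor that takes up fatty acids and oxidized lipoproteins, rose to 92.6, 121 and 122 CPM in DEHP livers, against 19.8, 21.1 and 29.2 CPM in control livers (log2 fold change 2.26 ± 0.22, adjusted p = 3.51e-04), and missed the threshold only with control replicates 1 and 2 both left out (adjusted p = 0.0933). Pdzk1, the scaffold that holds SR-BI at the hepatocyte surface, had 10.8, 5.93 and 10.2 CPM in DEHP livers and 16.8, 16.0 and 20.9 CPM in control livers. The groups did not overlap (fitted ratio of DEHP to control 0.502, edgeR adjusted p = 0.189).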

How the data were processed

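Polyadenylated RNA of 6 liver libraries, 3 with DEHP exposure and 3 without, was sequenced in paired ends after a dUTP strand-marking preparation, per the labels' protocols. The authors deposited raw counts per gene, whole numbers with 1 column for each library; the column words Control and High were matched to the titles without and with DEHP exposure, and the column numbers to the numbers in the titles. The submitters' processing notes name the build GRCm38.p6, while gene identifiers and coordinates are those of a C57BL/6NJ strain annotation; no source used here gives the aligner or the counting program. The 1284 rows without a gene name (2.73% to 4.28% of counts) were left out of library sizes and tests.

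The test was run in edgeR 4.0.16 under R 4.3.3, using filterByExpr with a minimum count of 10, TMM scaling, a robust quasi-likelihood fit with no covariate, a two-sided test and Benjamini-Hochberg adjustment over 12468 genes at 0.05. CPM are counts relative to the TMM-scaled total of tested genes; medians per library use log2 CPM with a prior count of 2. Standard errors derive from the F statistic. Replicates differed beyond sampling noise in every pair, with chi-square over degrees of freedom at 30.5 or above. Alternatives were RLE scaling, other filters, DESeq2 1.42.0, voom with limma 3.58.1, a non-robust fit, a replicate block and libraries left out. The fit was tested on simulated counts. The members and gene lists were chosen with earlier results of these data known. All members are named. Those at an unadjusted p of 0.05, those whose groups do not overlap and the most abundant of each role are given in full, with the members of each wider list past the threshold or, where none passed, those with the 2 smallest p; not every gene that this names is reported here. Cyp7a1, Lpcat3, Srebf1 and Pdzk1 were added after their values were seen.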

Additional observations from a re-analysis of the deposited data

How the results depend on the processing

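No member passed under the alternatives run except Abca1 with DESeq2 (1 gene) and Tm7sf2 without control replicate 3 (1 gene); other single libraries left out gave 0. The number of all genes past the threshold was 9, and 496 with no low-count filter, 272 with DESeq2, 2 with limma-voom and 0 with control replicates 1 and 2 both left out (edgeR, 642 at an unadjusted p of 0.05). With 1 library left out it ran from 5 (DEHP replicate 3 or control replicate 1) to 400 (control replicate 3), with 19 without DEHP replicate 1. The replicate block called 6 genes and no member. Deviations of same-numbered libraries correlated at -0.0212, 0.0565 and -0.0277, and 1 of 3 DEHP libraries correlated best with its own number. No pairing by number was seen, and correlations over so few libraries cannot exclude one. The efflux median ran from 0.06 to 0.45 with 1 library left out and was 0.32 with control replicates 1 and 2 both left out.

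Of 434 log2 fold changes of members under alternatives, 33 in 16 genes changed sign; the cause was not tested. With 1 library left out the range was -0.20 to 0.70 for Insig2, -0.11 to 0.79 for Hmgcs1, -0.15 to 0.47 for Pmvk, -0.10 to 0.59 for Mvd, -0.18 to 0.69 for Fdps, -0.68 to 0.19 for Sqle, -0.25 to 0.36 for Cyp51, -0.10 to 0.19 for Nsdhl, -0.03 to 0.27 for Ebp, -0.21 to 0.01 for Sc5d, -0.26 to 0.34 for Dhcr7, -0.12 to 0.51 for Mylip, -0.01 to 0.12 for Nr1h3 and -0.41 to 0.12 for Abcg1. With control replicates 1 and 2 both left out, values of the other sign were -0.25 for Insig2, 0.32 for Sqle, 0.44 for Cyp51, -0.06 for Hsd17b7, -0.23 for Ebp, -0.30 for Scarb1, -0.50 for Mylip and 0.89 for Abcg1. Abca1, Abcg8, Insig1, Tm7sf2 and Nr1h2 kept their sign under every alternative run. With 3 libraries a group, many of the changes seen here lie near the spread between libraries, and the counts of Idi1 and Fdps are too low to compare. For Abca1, Abcg8 and Nr1h2 the groups did not overlap, but none of them passed the adjusted threshold in the main edgeR fit.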
